A study of Homo sapiens with 8 samples.

Results

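The 38 genes described here encode the enzymes that load amino acids onto tRNA, the aminoacyl-tRNA synthetases, and the scaffold proteins that hold some of them together. They comprise 19 synthetase genes whose enzymes work in the cytosol, 16 whose enzymes work in mitochondria, and 3 scaffold genes of the multi-synthetase complex (AIMP1, AIMP2 and EEF1E1). Members were taken by name and matched to the deposited table by Entrez gene identifier. All 38 were found among the 17131 genes of the table, and all 38 passed the count filter that left 12434 genes for testing. Their counts ran from 29 to 7942 per library.

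RNA was sequenced from 8 cultures of HaCaT, an established line of human keratinocytes with a wild type genotype in the labels, 4 titled M5_O5 and 4 titled M5. Both groups received M5, a blend of oncostatin M, TNF-α, IL-1α, IL-17A and IL-22 (5 cytokines) that the methods give at 10 ng/mL for 24 h to model psoriatic keratinocytes. OTS514, an inhibitor of the kinase TOPK, was given to 1 of the groups at 10 nM for 12 h beforehand and then together with M5. The labels contradict each other about which group that was. The title M5_O5 reads as M5 plus OTS514, whereas the treatment field enters no treatment for those libraries and the TOPK inhibitor for the libraries titled M5. Groups are therefore called by title, and every direction is given as M5_O5 relative to M5. Under the treatment field, each direction would be exchanged with respect to the inhibitor. No unstimulated culture was analysed here, and the sources do not say that replicates were started independently, so p-values measure the spread between these samples.

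A synthetase recognises an amino acid and its tRNAs and joins them for use by the ribosome, and most synthetases serve a single amino acid. Cytosol and mitochondria translate with separate sets of tRNA, and most of the mitochondrial enzymes are made from their own nuclear genes. GARS1 and KARS1 each supply both compartments. A group of cytosolic enzymes is assembled with the scaffolds AIMP1, AIMP2 and EEF1E1 into the multi-synthetase complex. When amino acids run short, uncharged tRNA activates the kinase GCN2 (encoded by EIF2AK4), translation of the transcription factor ATF4 increases, and ATF4 acts with C/EBP partners at a composite DNA element in genes for amino acid supply and for many cytosolic synthetases.

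The core of that element, TGATGNAA, was searched on both strands of the RefSeq promoter windows (GRCh38.p14, 250 bases before to 50 bases after each start). Of 16 cytosolic genes with an entry, 7 held it (43.8%), compared with 1 of 14 mitochondrial genes (7.14%) and 0 of 3 scaffold genes. Of all 35116 windows 3.62% held it, and of the 10208 tested genes with an entry 2.72% did. LARS1, VARS1, YARS1, AARS2 and VARS2 were without an entry. The matches are shown because the members that hold the element are followed through the replicates later. Each line gives 30 bases, 5′ to 3′ on the strand of the gene, with the element in capitals. On these strands the element reads as TGATGNAA or as its reverse complement. CARS1, GARS1 and TARS1 each have 2 windows, of which 1 held it.
AARS1, chr16:70289675-70289704 (minus strand), first base of the element at -187 from the start: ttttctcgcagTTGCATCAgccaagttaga
CARS1, chr11:3057407-3057436 (minus strand), at -2: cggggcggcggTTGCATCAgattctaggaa
GARS1, chr7:30594834-30594863 (plus strand), at -33: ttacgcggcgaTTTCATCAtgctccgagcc
IARS1, chr9:92293692-92293721 (minus strand), at -13: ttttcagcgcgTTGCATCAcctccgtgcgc
MARS1, chr12:57488053-57488082 (plus strand), at -4: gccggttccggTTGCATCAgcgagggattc
NARS1, chr18:57621804-57621833 (minus strand), at 15: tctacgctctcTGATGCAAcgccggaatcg
TARS1, chr5:33440956-33440985 (plus strand), at 3: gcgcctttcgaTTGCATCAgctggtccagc
YARS2, chr12:32756076-32756105 (minus strand), at -197: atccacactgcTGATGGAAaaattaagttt

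All 7 matches among cytosolic genes but that of GARS1 carried the stricter sequence TGATGCAA or its reverse complement. The stricter sequence was thus held by 6 of 16 cytosolic genes (37.5%) and 0 of 14 mitochondrial genes. Counted by gene, 0.725% of the tested genes with an entry held it, and counted by window, 0.866% of all windows did. A match is a description of letters and not a bound site.

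The first comparison asked how many of the members differed between the 2 titles. A gene was called when its adjusted p-value from edgeR's quasi-likelihood test, with Benjamini-Hochberg adjustment over all 12434 genes, was under 0.05. Of the 19 cytosolic synthetase genes, 15 were called higher in M5_O5, 0 were called lower and 4 were not called. Over all genes tested, 19.5% were called higher and 17.6% were called lower. The median log2 fold change of the cytosolic genes was 0.33, with a range from -0.0001 to 1.12, and the median over all genes was 0.01. Of the 16 mitochondrial synthetase genes, 6 were called higher, 0 lower and 10 were not called, with a median of 0.18 and a range from -0.13 to 0.84. Of the 3 scaffold genes, 2 were called higher and 0 lower, with a median of 0.55. The members together gave 23 calls higher, 0 calls lower and a median of 0.28. The difference between the cytosolic and the mitochondrial genes was not tested.

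**Figure D1:**
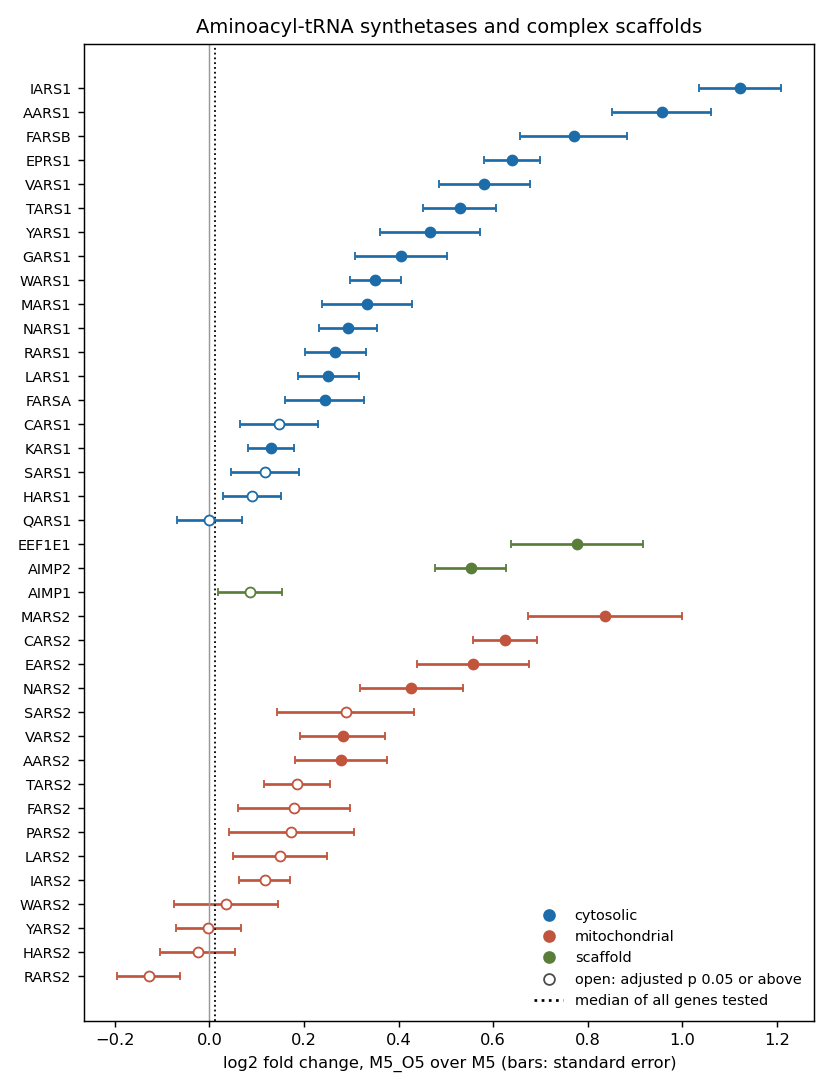
Log2 fold change of M5_O5 over M5 (horizontal axis) for each of the 38 genes, grouped as cytosolic, mitochondrial and scaffold, with bars of 1 standard error, open points for genes not called and a dotted line at the median of all genes tested. IARS1 lies farthest to the right at 1.12, and 34 of the 38 genes lie above 0.

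Adding a fold change of at least 2, which is the threshold the study's methods use, left IARS1 as the single member called. By that rule 2.87% of all genes were called higher in M5_O5 and 0.330% lower. The paper, with its own p-value rule, reports more genes downregulated than upregulated after OTS514. Which label names the treated group was not tested. With at least 1.5-fold there were 4 cytosolic genes, 2 mitochondrial genes and 1 scaffold gene, among 7.04% of all genes. VARS1 lay just outside this limit, with a log2 fold change of 0.58, and CARS2 just inside it, with 0.62. In 12 of 19 cytosolic, 5 of 16 mitochondrial and 2 of 3 scaffold genes, every M5_O5 library lay above every M5 library. Over all genes this arrangement was found for 17.8%.

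IARS1, which charges isoleucine tRNA and belongs to the complex, had 116, 153, 157 and 144 CPM (counts scaled to a common library size by TMM) in M5_O5 replicates 1 to 4. In M5 it had 72.8, 63.4, 63.6 and 62.2 CPM. All M5_O5 libraries were above all M5 libraries, and the lowest M5_O5 library was replicate 1. The gene was 2.18-fold higher in M5_O5 (log2 fold change 1.12, SE 0.087, adjusted p = 9.72e-07, edgeR's quasi-likelihood test).

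AARS1, the alanine enzyme, had 104, 157, 153 and 125 CPM in M5_O5 and 72.0, 67.2, 70.1 and 69.1 CPM in M5. The M5 libraries were close together (69.6 ± 2.01 CPM, SD, n = 4), while the M5_O5 libraries were spread more widely (135 ± 25.2 CPM, SD, n = 4), with replicate 1 again lowest. AARS1 was 1.94-fold higher in M5_O5 (log2 fold change 0.96, SE 0.104, adjusted p = 1.45e-05, edgeR's quasi-likelihood test).

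EPRS1 encodes a fused enzyme of the complex that charges both glutamate and proline tRNA. Its level was 102, 118, 120 and 112 CPM in M5_O5 and 75.2, 72.4, 71.9 and 70.9 CPM in M5. The groups did not overlap, and the log2 fold change was 0.64 (SE 0.060, adjusted p = 4.56e-06, edgeR's quasi-likelihood test). FARSB is the beta subunit of the phenylalanine enzyme, for which FARSA encodes the alpha subunit. FARSB had 19.2, 16.6, 15.9 and 16 CPM in M5_O5 against 12.3, 9.08, 9.94 and 8.53 CPM in M5. Here M5_O5 replicate 1 was the highest library of its group, as M5 replicate 1 was of the other. FARSB had a log2 fold change of 0.77 (SE 0.113, adjusted p = 1.57e-04, edgeR's quasi-likelihood test), whereas FARSA, with groups that overlapped, had 0.24 (adjusted p = 0.0329 in the same test). The difference between the subunits was not tested.

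Among the scaffolds, EEF1E1, a small protein of the complex, had 6.39, 5.17, 5.16 and 4.81 CPM in M5_O5 and 3.43, 3.20, 2.76 and 3.18 CPM in M5. It was 1.71-fold higher in M5_O5 without overlap of the groups (log2 fold change 0.78, SE 0.140, adjusted p = 7.24e-04, edgeR's quasi-likelihood test). AIMP2 rose from 20.4 ± 1.11 to 29.9 ± 2.25 CPM (SD, n = 4 each), 0.55 on the log2 scale (adjusted p = 8.44e-05, same edgeR test). AIMP1 had 28.0 ± 1.44 CPM in M5 and 29.7 ± 1.59 CPM in M5_O5 and was not called (log2 fold change 0.09, adjusted p = 0.350, same edgeR test). In the gene annotation, exons of EEF1E1 are shared with a readthrough gene over 393 bases, and exons of AIMP2 lie opposite those of EIF2AK1 over 532 bases.

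**Figure D2:**
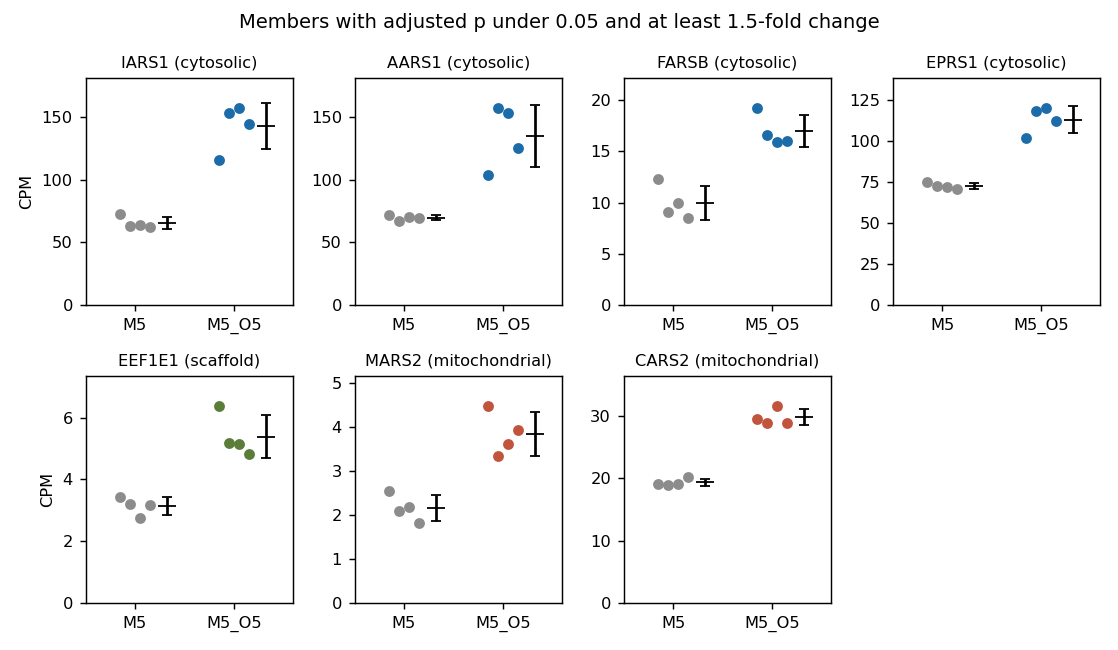
CPM (vertical axis, starting at 0) in each library for the 7 members called with at least a 1.5-fold difference; points are libraries, with replicates 1 to 4 from left to right, and the bars give the mean and SD of each title (n = 4). In every panel the M5_O5 libraries lie above the M5 libraries, and for IARS1 and AARS1 the M5_O5 replicate 1 lies lowest in its group.

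The remaining cytosolic genes were followed by role. Outside the complex, VARS1 (valine, log2 fold change 0.58), TARS1 (threonine, 0.53), YARS1 (tyrosine, 0.47), GARS1 (glycine, 0.41), WARS1 (tryptophan, 0.35) and NARS1 (asparagine, 0.29) were all called, with adjusted p-values in edgeR's quasi-likelihood test from 1.44e-04 to 0.00519. Within the complex, MARS1 (methionine, 0.33), RARS1 (arginine, 0.27), LARS1 (leucine, 0.25) and KARS1 (lysine, 0.13) were called, with adjusted p-values between 0.00574 and 0.0455 in the same edgeR test. The 7 enzymes of the complex had 6 calls and a median log2 fold change of 0.27, and the 12 outside it had 9 calls and a median of 0.38. The catalytic classes, which differ in the fold of the active site, gave equal counts of calls, 7 of 9 for class I and 7 of 9 for class II, leaving aside EPRS1, which holds both.

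The 4 cytosolic genes not called were CARS1 (cysteine, log2 fold change 0.15, adjusted p = 0.177), SARS1 (serine, 0.12, adjusted p = 0.215), HARS1 (histidine, 0.09, adjusted p = 0.268) and QARS1 (glutamine, adjusted p = 0.999, all by edgeR's quasi-likelihood test). QARS1, a member of the complex, averaged 102 ± 7.41 CPM in M5_O5 and 102 ± 8.14 CPM in M5 (SD, n = 4 each). The call of FARSA was lost when M5_O5 replicate 1 or 3 or M5 replicate 1, 3 or 4 was left out, and that of KARS1 when any library other than M5 replicate 1 was left out. The other 13 calls were made whichever library was left out.

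Among the mitochondrial enzymes, CARS2, the cysteine enzyme, had 29.5, 28.9, 31.6 and 28.9 CPM in M5_O5 and 19.1, 18.9, 19.0 and 20.2 CPM in M5. The spread within each group was small beside the gap between them, and CARS2 was 1.54-fold higher in M5_O5 (log2 fold change 0.62, SE 0.067, adjusted p = 1.28e-05, edgeR's quasi-likelihood test). MARS2, the methionine enzyme, was the least abundant synthetase by length-corrected level. It had 4.48, 3.33, 3.62 and 3.92 CPM in M5_O5 and 2.55, 2.09, 2.17 and 1.81 CPM in M5. The groups did not overlap, and MARS2 was 1.79-fold higher in M5_O5 (log2 fold change 0.84, SE 0.163, adjusted p = 0.00130, edgeR's quasi-likelihood test).

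EARS2 (glutamate) followed, 0.56 higher on the log2 scale (adjusted p = 0.00240, edgeR's quasi-likelihood test) and NARS2 (asparagine) with 0.43 (adjusted p = 0.00714). The call of NARS2 was lost with limma on log2(TPM + 1) and on log2(TPM + 0.1) and when a trend with expression level was removed. VARS2 (valine, 0.28, adjusted p = 0.0239) and AARS2 (alanine, 0.28, adjusted p = 0.0355) were also called, but their groups overlapped. Their calls rested on particular libraries. VARS2 was not called without M5_O5 replicate 1 or 3 or M5 replicate 2, 3 or 4, and AARS2 was not called without M5_O5 replicate 1, 3 or 4 or M5 replicate 1, 2 or 4. The 10 mitochondrial genes not called ran from RARS2 (arginine, -0.13, adjusted p = 0.143) to SARS2 (serine, 0.29, adjusted p = 0.135). TARS2 (threonine) did not overlap between groups and missed the threshold at an adjusted p = 0.0504 in the same edgeR test.

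The size of the mitochondrial median depended on scaling. It was 0.30 when counts were scaled by library size only, which also put the median of all genes at 0.13, and 0.10 when a trend with expression level was removed, an alternative in which 4 mitochondrial genes were called higher. Read sharing limits single values. Exons of 14 members overlap those of another protein-coding gene in GENCODE v29, and whether the counting used strand is not given in the sources used here. HARS1 and HARS2, a pair of genes read in opposite directions, share 437 exonic bases and 184 bases of their promoter windows. MARS1 lies opposite DDIT3 over 355 exonic bases, and VARS2 shares 1858 exonic bases with GTF2H4 on the same strand, so their reads cannot be told apart with certainty.

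**Figure D3:**
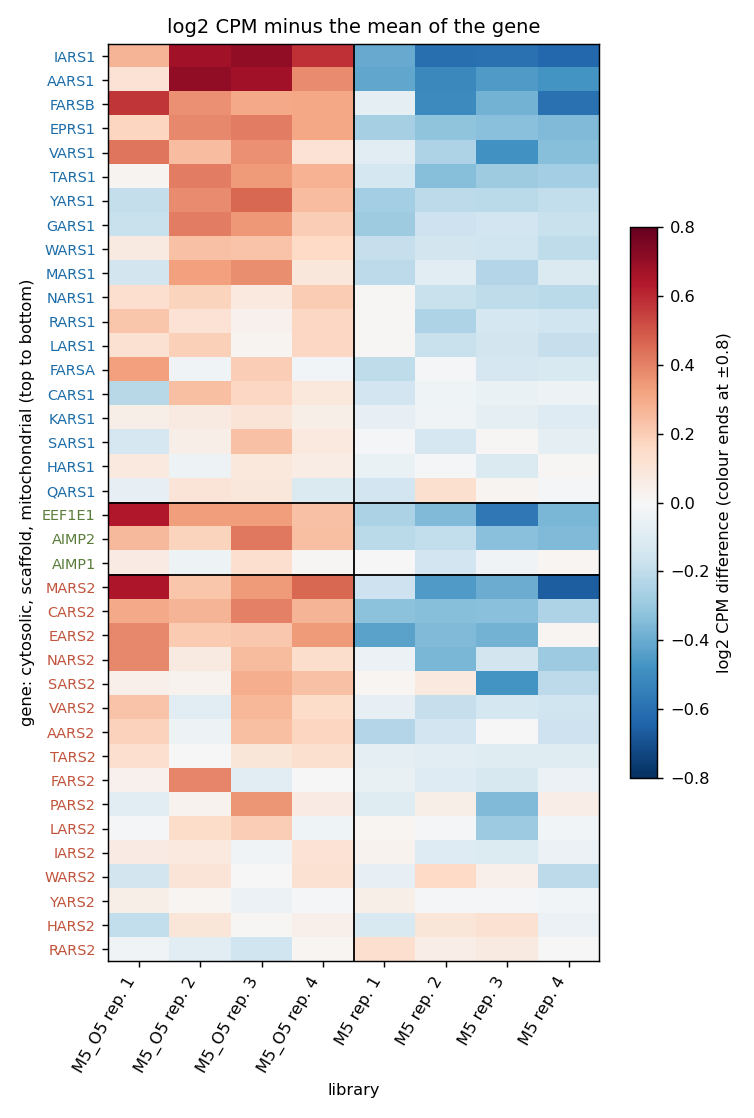
Log2 CPM of each gene (rows) in each of the 8 libraries (columns), minus the mean of the gene over the 8 libraries, on a colour scale in log2 units, with cytosolic genes at the top, scaffolds in the middle and mitochondrial genes below. Most rows are higher across the M5_O5 columns, and in several cytosolic rows M5_O5 replicate 1 is nearer to the M5 libraries than replicates 2 to 4.

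Levels of different genes were compared only in the deposited TPM, a transcript level corrected for length and scaled to a fixed sum in each library. In M5 the median TPM was 35.7 over the cytosolic genes and 6.77 over the mitochondrial genes. In M5_O5 these medians were 65.6 and 8.85 TPM. The middle cytosolic gene was YARS1 in M5 and RARS1 in M5_O5, so the step between these medians is not the change of a single gene. YARS1 had 53.4 TPM in M5_O5, and RARS1 had 50.3 TPM in M5. On log2(TPM + 1) the median log2 fold change of all genes was 0.12. WARS1 had the highest TPM of the cytosolic genes in both groups (216 in M5 and 298 in M5_O5) and VARS1 the lowest (5.75 and 9.58). IARS2, the mitochondrial isoleucine enzyme, had the highest TPM of its set (62.8 and 74.0), and MARS2 the lowest (1.20 and 2.32). Summed TPM of the cytosolic genes was 1071 ± 77.8 in M5 and 1472 ± 52.9 in M5_O5 (SD, n = 4 each), and that of the mitochondrial genes was 203 ± 16.2 and 248 ± 10.3. In RNA from whole cultures, a change in the share of cells in a given state and a change of RNA per cell cannot be told apart.

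For 16 amino acids a cytosolic gene could be set beside the mitochondrial gene for the same amino acid. The ratio of their TPM in a library is free of that library's scaling factor. The cytosolic gene had the higher level in 14 of 16 pairs in M5, the exceptions being IARS1 with IARS2 and VARS1 with VARS2. The log2 ratio was higher in every M5_O5 library than in every M5 library for 5 pairs, lower for 1 pair, and overlapping for 10 pairs. The median difference of the log2 ratio, M5_O5 minus M5, was 0.21, and 13 differences were above 0.

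Of the 16 pairs, IARS1 over IARS2 differed most, from a ratio of 0.371 in M5 to 0.742 in M5_O5, a difference of 0.999 in the log2 ratio. AARS1 over AARS2 went from 10.1 to 16, a difference of 0.66. For alanine and isoleucine the cytosolic gene thus gained on its partner in every library. The other pairs without overlap in this direction were RARS1 over RARS2 (0.37), VARS1 over VARS2 (0.35) and WARS1 over WARS2 (0.31). With CPM in place of TPM, the groups of VARS1 over VARS2 overlapped (0.31), those of EPRS1 over PARS2 did not (0.46, against 0.42 with overlap in TPM), and NARS1 over NARS2 turned from 0.04 to -0.13, with overlap on both scales. The opposite was found for cysteine, where CARS1 over CARS2 fell from 3.16 to 2.23, a difference of -0.50. Methionine had a difference of similar size (-0.51, from 28.6 to 20.1 for MARS1 over MARS2), but its groups overlapped. Transcripts of CARS1, SARS2, VARS1 and VARS2 were listed at more than 1 placement, which can alter their TPM. No test was made of these ratios.

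**Figure D4:**
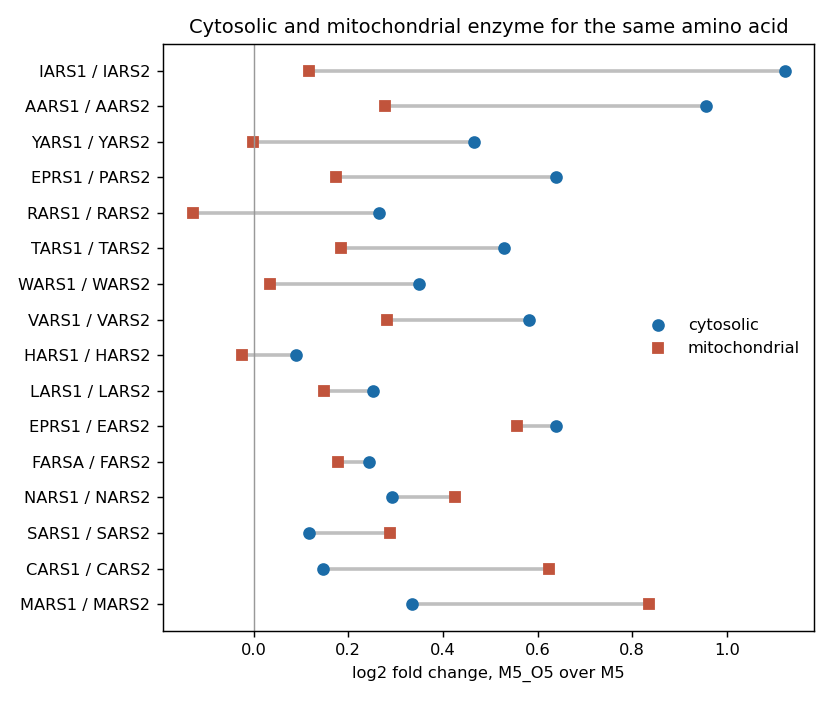
Log2 fold change of M5_O5 over M5 (horizontal axis) for the cytosolic gene (circles) and the mitochondrial gene (squares) of each of the 16 pairs. The circle lies far to the right of the square for isoleucine (1.12 against 0.12), and to the left of it for cysteine (0.15 against 0.62) and methionine (0.33 against 0.84).

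The replicates of M5_O5 differed among themselves in the cytosolic genes. The mean log2 CPM of the 19 cytosolic genes, relative to their M5 means, was 0.29 in M5_O5 replicate 1 and 0.46, 0.47 and 0.38 in replicates 2, 3 and 4. The M5 libraries ranged from -0.03 to 0.05. For the 16 mitochondrial genes the same mean was 0.25, 0.21, 0.27 and 0.26 in M5_O5 replicates 1 to 4, so replicate 1 did not stand below the others there. M5_O5 replicate 1 was the lowest library of its group in 10 of 19 cytosolic genes (52.6%), in 3 of 16 mitochondrial genes (18.8%), in 0 of 3 scaffold genes and in 30.5% of all genes tested.

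The log2 CPM of M5_O5 replicate 1 minus the mean of the other replicates was -0.55 for YARS1, -0.50 for GARS1, -0.48 for AARS1, -0.41 for MARS1, and -0.38 for both CARS1 and IARS1. FARSB and FARSA were on the other side, at 0.25 and 0.27. Without M5_O5 replicate 1, CARS1 was called (log2 fold change 0.23, adjusted p = 0.00769, edgeR's quasi-likelihood test), as was SARS1 (0.18, adjusted p = 0.0435). Without it the log2 fold changes of IARS1 and AARS1 were 1.21 and 1.06. M5 replicate 1, the shallowest library, was the highest M5 library for 9 of 19 cytosolic genes, 8 of 16 mitochondrial genes and 39.4% of all genes tested. Without M5 replicate 1 the log2 fold changes of FARSB and MARS2 were 0.88 and 0.92.

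Of the 7 cytosolic genes with the element printed above, 6 were called higher, with a median log2 fold change of 0.41, and M5_O5 replicate 1 was the lowest of its group in 6 of 7. Their median difference between that replicate and the others was -0.38, with a range from -0.50 to -0.02. Of the 9 cytosolic genes with an entry and no element, 6 were called higher, with a median log2 fold change of 0.24, and replicate 1 was lowest in 3. Their median difference between replicate 1 and the others was -0.02, with a range from -0.25 to 0.27. The 3 cytosolic genes without an entry, LARS1, VARS1 and YARS1, were all called higher, with a median log2 fold change of 0.47. Replicate 1 was lowest in 1 of these 3. Its difference from the others ran from -0.55 (YARS1) to 0.18 (VARS1), and whether these genes hold the element is not known here. The ranges overlapped, and this split was made after the values had been seen, so it was not tested. The mitochondrial gene with the element, YARS2, averaged 19.4 ± 0.549 CPM in M5_O5 and 19.5 ± 0.470 CPM in M5 (SD, n = 4 each; adjusted p = 0.985, edgeR's quasi-likelihood test).

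**Figure D5:**
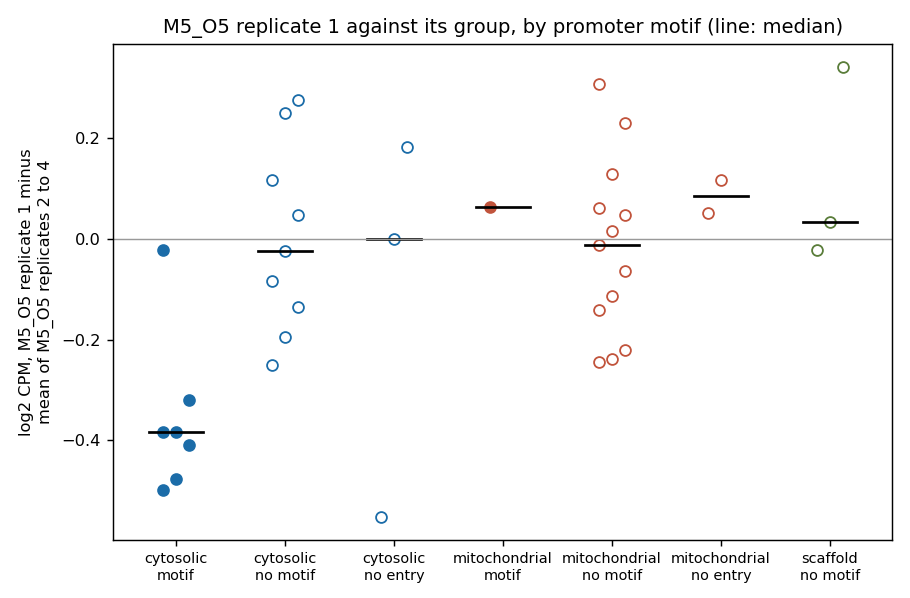
Log2 CPM of M5_O5 replicate 1 minus the mean of M5_O5 replicates 2 to 4 (vertical axis, in log2 units) for each member, separated by whether its promoter window held TGATGNAA; black lines are medians. The 7 cytosolic genes with the element lie between -0.50 and -0.02, and the 9 without it between -0.25 and 0.27. The 3 cytosolic genes without a promoter entry lie between -0.55 and 0.18.

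Genes of the amino acid response were followed as the pathway that the element is known from. Of 30 such genes tested, 15 were called higher, 0 lower and 15 were not called, and the median log2 fold change was 0.22. M5_O5 replicate 1 was the lowest of its group in 21 of the 30. ASNS, asparagine synthetase, had 2.50, 7.98, 8.65 and 4.58 CPM in M5_O5 and 1.09, 1.11, 0.790 and 0.872 CPM in M5 (log2 fold change 2.61, adjusted p = 1.13e-04, edgeR's quasi-likelihood test). CHAC1, a glutathione-degrading enzyme, had 3.49, 21.6, 23.5 and 13.3 CPM in M5_O5 and from 2.55 to 3.33 CPM in M5 (2.37, adjusted p = 7.74e-04, same edgeR test). In both genes replicate 1 of M5_O5 lay nearest to the M5 libraries. PSAT1, an enzyme of serine synthesis, reached 2.52 on the log2 scale (adjusted p = 3.12e-06, same edgeR test). ATF4 itself had 194, 268, 286 and 236 CPM in M5_O5 and 192, 230, 224 and 209 CPM in M5, with groups that overlapped and no call (0.20, adjusted p = 0.121, same edgeR test). EIF2AK4, named after its value was seen, gave 0.32 on the log2 scale (adjusted p = 7.66e-04, same edgeR test). EIF2AK1, EIF2AK2 and EIF2AK3 of the same list gave -0.04, -0.08 and -0.05 and were not called (adjusted p = 0.601, 0.450 and 0.610, same edgeR test).

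Other genes of charging and translation were followed by list. Of 13 further charging and editing genes tested, 5 were called higher and 0 lower, with a median log2 fold change of 0.19. They included QRSL1 (0.53, adjusted p = 0.00234, edgeR's quasi-likelihood test), which acts in making glutamine tRNA in mitochondria, and MTFMT (0.30), which formylates the mitochondrial initiator. Of 7 cytosolic elongation factors, EIF5A (0.30) and EEF1B2 (0.30) were called higher and EEF1D (-0.19) lower, with a median of -0.07. Of 13 mitochondrial translation factors, 5 were called higher and 0 lower, with a median of 0.13, and MTRFR (0.39) had the largest change among them. Of 77 mitochondrial ribosomal protein genes, 26 were called higher, 1 (MRPS6, -0.37, named after its value was seen) was called lower and 50 were not called, with a median of 0.19. MRPL40 (0.60), MRPL4 (0.59) and MRPL24 (0.58) led those called higher. The median of the mitochondrial ribosomal proteins was close to that of the mitochondrial synthetases (0.18), and the difference was not tested.

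Total counts ran from 13708055 to 16922693 per library, with the smallest in M5 replicate 1, and the biological coefficient of variation was 7.42%. All 12 keratinocyte markers were tested, and 9 of them were called lower in M5_O5 and 0 higher, with a median log2 fold change of -0.32 and a summed level of 17057 to 18524 CPM in M5_O5 against 21143 to 24126 CPM in M5. Summed levels in M5_O5 and M5 were 33.1 to 36.6 and 43.1 to 58.3 CPM for fibroblast markers, 79.6 to 98.1 and 94.4 to 126 CPM for leukocyte markers, 1.90 to 2.62 and 1.51 to 1.97 CPM for melanocyte markers, and 4.10 to 7.03 and 2.85 to 4.18 CPM for endothelial markers. Of these lists 3 of 7, 2 of 7, 1 of 6 and 1 of 6 genes were tested, and 1, 1, 0 and 0 of them were called lower and 0, 0, 0 and 1 higher. Nearly all of the leukocyte sum came from CD14 (mean 34.1 CPM in M5_O5 and 37.6 in M5) and CD68 (54.8 and 74.9). COL1A1 (32.8 and 48.8 CPM) made up nearly all of the fibroblast sum. PTPRC, TYR and KDR were at 0 in every library. The part of these shifts in the results on the synthetases was not tested.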

How the data were processed

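Libraries were grouped by title. Per the labels and methods, the authors mapped reads with HISAT2 2.1.0, and the submitters' processing notes also name Bowtie2 2.2.5, RSEM 1.2.8 and mm10, a mouse build, for these human cells, so no gene position was taken from the table. The authors deposited, for 86639 transcripts, estimated counts that were not normalized, TPM scaled to a fixed sum per library, and FPKM, which was not used here. The authors' group means were not used. Of the counts 53.8% were fractional. They were summed per gene and rounded, and 4181 transcripts were further placements, which affected CARS1, SARS2, VARS1 and VARS2.

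Genes were kept by filterByExpr, scaled by TMM and tested with edgeR 4.0.16 (R 4.3.3). Members without overlap had p = 0.0286 in a two-sided exact permutation test of log2 CPM, which is the lowest p that 70 arrangements of 4 against 4 can reach. Scripts were tested on simulated data. Replicate pairs differed by more than sampling noise. Symbols came from RefSeq (GRCh38.p14). Members and gene lists were chosen with earlier results of these data known. Members called with at least a 1.5-fold difference were given in every library, and up to 3 called genes with the largest change in each related list were named, plus ATF4. EIF2AK1, EIF2AK2, EIF2AK3, EIF2AK4, MRPS6 and single cell type markers were named outside this rule, after their values were seen. Some genes of these lists are not reported here. The alternatives tried were other scalings, other count filters, DESeq2 1.42.0, limma 3.58.1 on log2(TPM + 1) and log2(TPM + 0.1), removal of an expression-level trend, the replicate number as a block, and leaving out each library.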

Additional observations from a re-analysis of the deposited data

Results flagged for a closer look

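In 5 of 76 groups of 4 libraries, 1 library stood apart from the other replicates by a gap that filled most of the group's range, where chance would give about 3.80 such groups. All 5 were in M5. M5 replicate 1 had 88.69 CPM of CARS1, where replicates 2 to 4 had 95.43 to 96.74, and 72.77 CPM of IARS1, against 62.23 to 63.57. M5 replicate 4 had 20.24 CPM of CARS2, against 18.88 to 19.05, and 7.350 CPM of EARS2, against 5.401 to 5.683. M5 replicate 3 had 9.609 CPM of LARS2, against 11.65 to 11.90.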

How the results depend on the processing

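No member changed direction with a call under any alternative, and 0 members were called lower under any of them. Over 38 members and all alternatives, 587 of 646 calls stayed on the same side of the threshold, 33 were lost and 26 were gained. The count of cytosolic genes called higher ran from 13 (DESeq2) to 18 (library size only), that of mitochondrial genes from 4 (trend removed) to 9 (library size only), and that of scaffolds from 2 to 3. The median log2 fold change of cytosolic genes was 0.45 with library size only, 0.44 with log2(TPM + 1), 0.45 with log2(TPM + 0.1) and 0.41 with the expression-level trend removed. For mitochondrial genes it was 0.30, 0.27, 0.31 and 0.10 in the same order, and for scaffolds 0.67, 0.67 and 0.68 in the first 3. The first 3 of these settings also moved the median of all genes, to 0.13, 0.12 and 0.13. The cause of the other differences was not tested. DESeq2 lost the calls of FARSA, KARS1 and AARS2. Leaving out 1 library gave 13 to 15 cytosolic calls with medians from 0.29 to 0.38, 4 to 7 mitochondrial calls with medians from 0.17 to 0.22, and 2 scaffold calls with medians from 0.50 to 0.59. The replicate block changed no call, with 15, 6 and 2 calls higher and medians of 0.33, 0.18 and 0.55. Same-numbered libraries deviated together with correlations from -0.00592 to 0.278, of which 2 of 4 were over 0.1. Between differently numbered libraries the correlations ran from -0.304 to 0.34. These values cannot decide whether the numbers pair the libraries, because the 2 ranges overlap. Genes of low count, such as MARS2 and SARS2, have the least depth behind them.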

Other observations

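KARS1 makes a cytosolic and a mitochondrial form of the lysine enzyme from alternative transcripts. By deposited TPM, the transcript of the mitochondrial form held 20.1 to 21.8% of the gene in M5 and 17.3 to 19.7% in M5_O5, and the groups did not overlap (20.8 ± 0.738% and 18.8 ± 1.05%, SD, n = 4 each). The transcript of the cytosolic form held 78.1 ± 0.851% in M5 and 80.7 ± 1.35% in M5_O5. The division of reads among transcripts is an estimate, and no test was made.

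SARS2 was listed at 2 placements with identical values, each 50% of the gene, and both were included in its summed level.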
